A study of Mus musculus with 12 samples.

Results

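Transcripts of 10 genes of interleukin-1 (IL-1) signalling were measured in Cx3cr1+ macrophages of mouse lung. The genes are Il1a, Il1b, Il1rn, Il1r2, Il1rap, Il18, Il18bp, Nlrp3, Casp1 and Pycard. They were chosen by symbol from a table of 52636 genes, 0 of the 10 symbols occurred more than once, and all 10 passed the filter on low counts, as did 16679 genes in all. The 3 groups of 4 bulk RNA-seq libraries differ in treatment and genotype. Bleomycin KO libraries are labelled as bleomycin-treated and IL4Ra KO, bleomycin WT libraries as bleomycin-treated and IL4Ra WT, and saline WT libraries as saline-treated and IL4Ra WT. Il4ra encodes the IL-4 receptor alpha chain, through which IL-4 and IL-13 signal, and bleomycin is a lung-damaging drug used to model fibrosis in mice. The labels give neither the strain, age or time after treatment nor the Cre line or the exons removed, and no saline KO group was analysed here. Whether the libraries within a group are from different animals is not stated either, so p-values here reflect only spread from library to library, which may be technical.

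IL-1 alpha (Il1a) and IL-1 beta (Il1b) bind the same signalling receptor, which needs the accessory protein Il1rap to signal. The IL-1 receptor antagonist (Il1rn) occupies that receptor without activating it, and Il1r2 is a decoy receptor that binds IL-1 but does not signal. IL-1 beta and IL-18 (Il18) are made as inactive precursors that caspase-1 (Casp1) cuts within the inflammasome, a complex of a sensor such as Nlrp3 and the adaptor ASC (Pycard), and IL-18 is held inactive outside the cell by the IL-18 binding protein (Il18bp). Macrophages are among the sources of these proteins in injured lung. Transcript levels say nothing of cutting or release.

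Levels are given as CPM, which are counts relative to library sizes scaled by the trimmed mean of M-values (TMM). Total counts were 8514384 to 16842991 in bleomycin KO, 9600870 to 18051113 in bleomycin WT and 60598 to 10168525 in saline WT. Saline WT 2 is the library with 60598 counts, in which 1 count is worth 10.8 CPM and a count of 0 allows up to 32.4 CPM (3 counts, counting error only). Bleomycin WT 4 also stood apart, with a TMM factor of 0.579, against 0.898 to 1.54 in the other libraries. The best Spearman correlation it reached with another library was 0.743, against 0.833 or more in the other bleomycin libraries. Saline WT 1 reached only 0.707, with 3534193 counts in all, and was kept. Results are given over 12 libraries and again over the 10 that remain without saline WT 2 and bleomycin WT 4, a choice made after seeing the data. Macrophage markers (10 genes, among them Lyz2, Csf1r and C1qa) summed to 47466 to 68188 CPM in bleomycin KO, 28677 to 50866 CPM in bleomycin WT and 14290.2 to 33937 CPM in saline WT, and the only one of them at 0 in any library was Mertk, in saline WT. Lyz2 was the largest part of these sums, with means of 42109, 31009 and 19982 CPM in the same order of groups. In each bleomycin group against saline WT, 7 of these markers had positive and 3 had negative log2 fold changes over 12 libraries (edgeR). Cx3cr1, the gene in the cells' name, averaged 97.3, 57.0 and 343 CPM in that order, and its saline WT libraries ran from 98.1 to 940 CPM. Csf1r and Itgam also had their highest means in saline WT. Summed neutrophil markers were lower in the bleomycin groups and are given with the receptors. In bulk RNA, fewer cells of a type and less RNA per cell cannot be told apart.

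The targeted gene did not separate the genotypes. Il4ra stood at 473, 277, 235 and 343 CPM in the libraries labelled KO, against 351, 626, 302 and 138 CPM in bleomycin WT and 111, 32.4, 262 and 302 CPM in saline WT. Bleomycin KO against bleomycin WT gave a log2 fold change of -0.09 (SE 0.58, adjusted p = 0.9998, edgeR's quasi-likelihood test). Counts are summed over the whole gene, so a transcript that lacks some exons would still be counted. The library kit does not mark strand, and 571 of 6002 annotated exonic bases of Il4ra are shared with the antisense gene Gm44876. The genotype of the libraries labelled KO could not be checked. Every comparison of the genotypes below rests on the labels.

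The antagonist gene Il1rn and the agonist gene Il1a stood higher in both bleomycin groups than in saline WT, in every library, and Pycard did too, which makes 3 of 10 genes without overlap, against 8.17% of all genes in bleomycin KO and 4.93% in bleomycin WT. Il1b, the most abundant of the 10 transcripts, did not separate the groups. Il1r2, Il1rap and Il18 were highest in saline WT 3 and saline WT 4. Over 12 libraries, 0 of the 10 genes passed an adjusted p of 0.05 (edgeR, Benjamini-Hochberg over 16679 genes) in any comparison, against 0.024% of all genes in bleomycin WT against saline WT, 0.018% in bleomycin KO against saline WT and 0% in bleomycin KO against bleomycin WT. Over 10 libraries Il1rn rose in bleomycin WT against saline WT, and Il1rn and Il1a rose in bleomycin KO against saline WT. Between bleomycin KO and bleomycin WT, 0 of the 10 passed with either set of libraries.

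**Figure D1:**
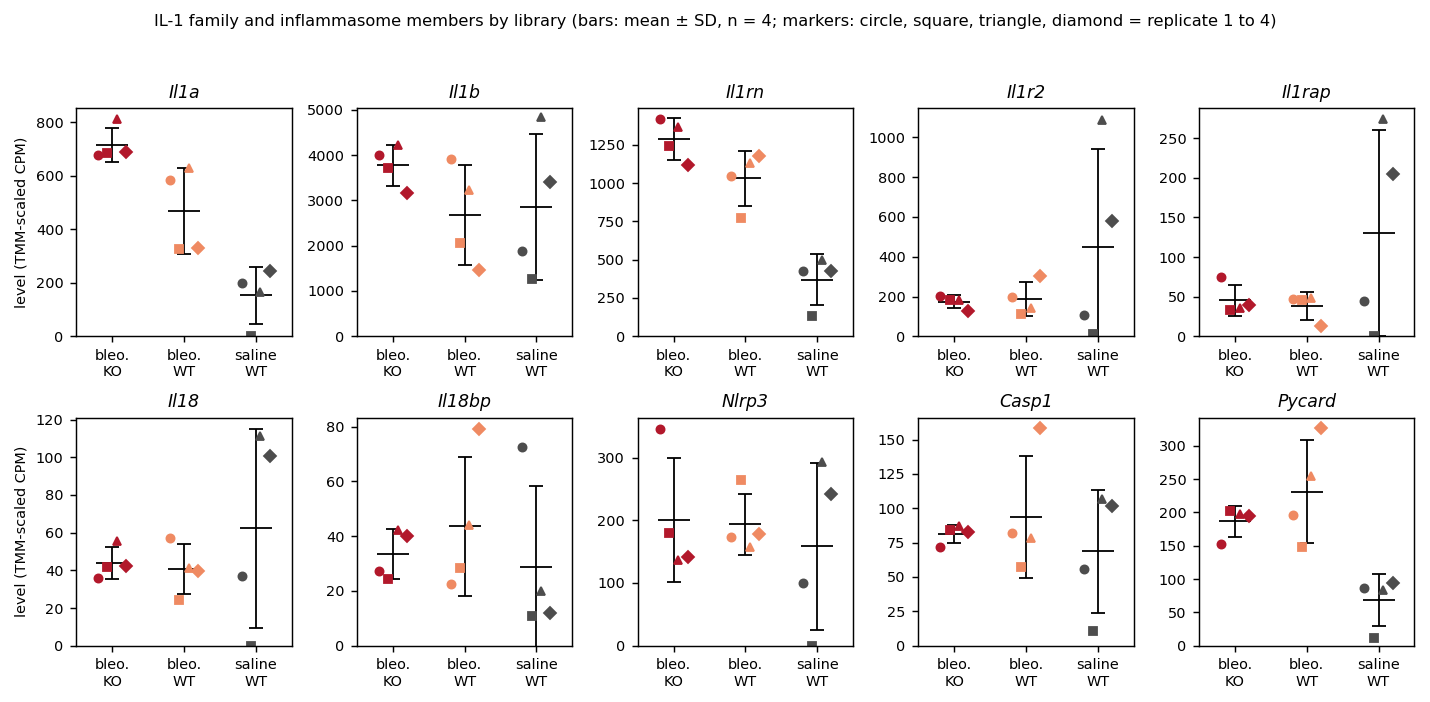
Level of each of the 10 genes in every library, in CPM on the y axis (TMM-scaled). Columns are bleomycin KO, bleomycin WT and saline WT from left to right, marker shapes give the replicate number and bars the mean ± SD (n = 4). The 8 bleomycin libraries lie above the 4 saline libraries for Il1a, Il1rn and Pycard, while Il1r2 and Il1rap are highest in saline WT 3 and 4.

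Compared per kilobase (kb) of exonic length, Il1b had the highest level in each group, at 2784 ± 335 CPM per kb in bleomycin KO, 1971 ± 816 in bleomycin WT and 2104 ± 1187 in saline WT (SD, n = 4 each). Il1rn followed in the bleomycin groups at 476 ± 50.0 CPM per kb in bleomycin KO and 381 ± 67.0 in bleomycin WT, then Il1a at 362 ± 32.6 in bleomycin KO and 237 ± 81.8 in bleomycin WT. The ranges of these 2 neighbours did not overlap in bleomycin KO, where the lowest Il1rn library stood at 413 CPM per kb and the highest Il1a library at 411. In bleomycin WT, where Il1rn ran from 285 to 434 and Il1a from 165 to 319 CPM per kb, the ranges overlapped. Within each bleomycin library of either genotype, Il1rn stood above Il1a per kb. In saline WT the decoy Il1r2 followed Il1b at 316 ± 349 CPM per kb and Il1rn came next at 137 ± 60.5, with overlapping ranges. Pycard, Casp1, Nlrp3 and Il18 lay between 39.4 and 62.8 CPM per kb on average in the bleomycin groups and their ranges overlapped in each of them. Il1r2 came after Il1a in the bleomycin groups, at 123 ± 22.4 CPM per kb in bleomycin KO and 133 ± 59.5 in bleomycin WT. Il18bp was the lowest there after Il1rap, at 11.1 ± 3.01 CPM per kb in bleomycin KO, 14.4 ± 8.42 in bleomycin WT and 9.51 ± 9.72 in saline WT. Il1rap was lowest in the bleomycin groups, at 5.31 ± 2.27 CPM per kb in bleomycin KO and 4.45 ± 2.01 in bleomycin WT, against 15.2 ± 15.1 in saline WT.

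**Figure D2:**
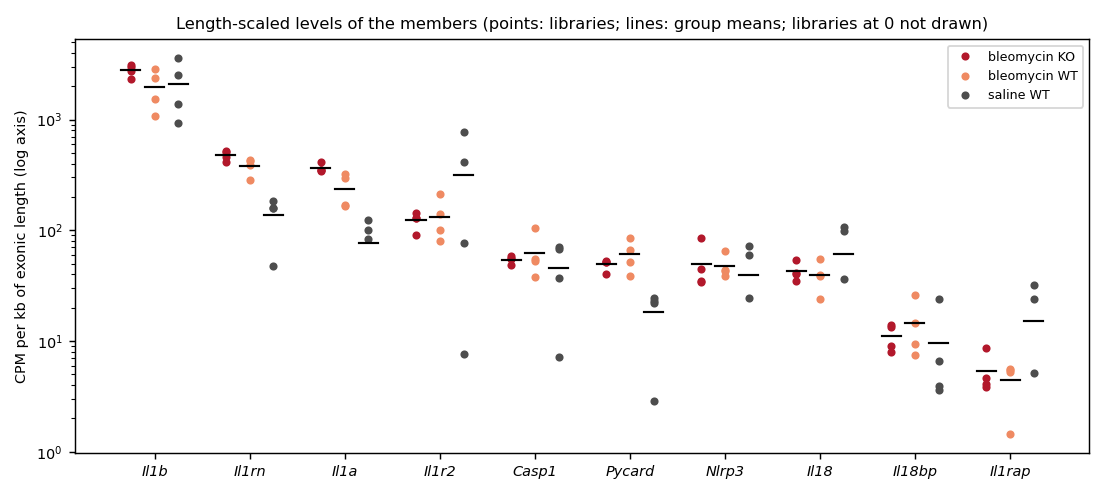
Level of each of the 10 genes per kb of exonic length in every library, in CPM per kb on a log y axis, for bleomycin KO, bleomycin WT and saline WT from left to right, with lines at the group means and libraries at 0 not drawn. Il1b has the highest mean in each group, from 1971 to 2784 CPM per kb.

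Il1a and Il1b are neighbours on chromosome 2 (GRCm38), both on the minus strand, at chr2:129299610-129309972 and chr2:129364570-129371139, and Il1rn lies on the plus strand at chr2:24336853-24351494. The bases just before their starts are shown because Il1a and Il1rn, but not Il1b, stood apart from saline WT. The sequences are from RefSeq (GRCm38.p6), 250 bases before each start, less those that an exon covers. Capitals mark matches, on either strand, to 5 short motifs: a TATA box (TATAAA), AP-1 (TGANTCA), NF-kB (GGG, then 5 free bases, then CC), the PU.1 core (GAGGAA) and a STAT6-type spacing (TTC, then 4 free bases, then GAA). Il1rn has several starts, and gene counts do not show which was used.
Il1a, chr2:129309973-129310222, minus strand: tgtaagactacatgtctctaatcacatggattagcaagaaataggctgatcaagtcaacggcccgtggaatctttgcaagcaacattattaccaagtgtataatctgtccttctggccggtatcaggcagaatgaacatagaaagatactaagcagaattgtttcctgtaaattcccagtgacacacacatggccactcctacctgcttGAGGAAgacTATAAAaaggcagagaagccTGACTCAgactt
Il1b, chr2:129371140-129371389, minus strand: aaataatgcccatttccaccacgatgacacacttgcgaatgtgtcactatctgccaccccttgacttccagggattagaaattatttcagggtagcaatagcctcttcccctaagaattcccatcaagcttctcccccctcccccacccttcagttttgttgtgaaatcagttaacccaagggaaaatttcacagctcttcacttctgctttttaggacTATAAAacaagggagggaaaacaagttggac
Il1rn, first start, chr2:24336610-24336852, plus strand: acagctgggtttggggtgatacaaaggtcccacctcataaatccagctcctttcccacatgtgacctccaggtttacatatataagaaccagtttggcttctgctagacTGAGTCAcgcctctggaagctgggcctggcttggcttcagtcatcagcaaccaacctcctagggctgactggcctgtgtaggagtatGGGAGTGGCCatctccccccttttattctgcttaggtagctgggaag
Il1rn, second start, chr2:24345041-24345287, plus strand: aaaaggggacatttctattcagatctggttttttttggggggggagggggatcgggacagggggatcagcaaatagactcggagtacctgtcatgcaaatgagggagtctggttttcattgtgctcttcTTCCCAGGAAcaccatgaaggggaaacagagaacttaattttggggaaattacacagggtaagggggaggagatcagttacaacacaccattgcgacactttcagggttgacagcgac
Il1a held a TATA box, an AP-1 match and a PU.1 core, Il1b a TATA box only, the first Il1rn window an AP-1 and an NF-kB match, and the second a STAT6-type spacing. The window of the third Il1rn start, not printed because exons leave only a short stretch of it, held an NF-kB match and a STAT6-type spacing. Of 32851 such windows across the genome, 12.4% held TATAAA, 6.75% the AP-1 letters, 45.8% the NF-kB letters, 23.3% the PU.1 core and 5.85% the STAT6-type spacing. Among the 10 genes, 3 had a TATA box, 2 an AP-1 match, 4 an NF-kB match, 4 a PU.1 core and 3 a STAT6-type spacing in at least 1 window. These counts are per gene, and Il1rn and Nlrp3 had more than 1 window, so they are not on the scale of the shares per window. A match is a description of these letters and not evidence of binding.

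Il1a, which encodes an agonist that acts from the cell surface and from dying cells, stood at 676, 684, 811 and 688 CPM in bleomycin KO, against 582, 325, 629.7 and 331 CPM in bleomycin WT. In saline WT it stood at 199.9, 0, 164 and 245 CPM, the 0 being in saline WT 2. The 3 groups did not overlap: every bleomycin KO library lay above every bleomycin WT library, and these above every saline WT library. Group means were 715 ± 64.4, 467 ± 162 and 152 ± 107 CPM for bleomycin KO, bleomycin WT and saline WT (SD, n = 4 each). Over 12 libraries the log2 fold change was 2.17 (SE 0.66, adjusted p = 0.310, edgeR) for bleomycin KO against saline WT and 1.56 (SE 0.65, adjusted p = 0.296) for bleomycin WT against saline WT. Over 10 libraries Il1a rose in bleomycin KO against saline WT by a log2 fold change of 1.80 (SE 0.26, adjusted p = 0.0190, edgeR). For bleomycin WT against saline WT the value was 1.31 (SE 0.26, adjusted p = 0.0631), which did not pass. Bleomycin KO against bleomycin WT gave 0.61 (95% interval -0.73 to 1.96, adjusted p = 0.9998) over 12 libraries and 0.49 (95% interval -0.06 to 1.03, adjusted p = 0.9999) over 10. The library kit does not mark strand, and 222 of the 1974 exonic bases of Il1a are shared with Gm14023, a processed transcript on the other strand, so the reads of these 2 genes cannot be told apart there. Gm14023 was counted at 93.4 to 112 CPM in bleomycin KO, 19.4 to 95.8 CPM in bleomycin WT and 10.8 to 44.0 CPM in saline WT.

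Il1b, which encodes the agonist released after cutting by caspase-1, was counted at 4002, 3714, 4215 and 3167 CPM in bleomycin KO, against 3911, 2066, 3241 and 1471 CPM in bleomycin WT. The saline WT libraries held 1883, 1265, 4853 and 3412 CPM, which span the whole range of the bleomycin libraries. Saline WT 3, with 4853 CPM, had the highest level of all 12. For Il1b the log2 fold change was 0.40 (95% interval -0.50 to 1.31, adjusted p = 0.830, edgeR) for bleomycin KO against saline WT and -0.10 (95% interval -1.002 to 0.81, adjusted p = 0.947) for bleomycin WT against saline WT. Bleomycin KO against bleomycin WT gave 0.50 (95% interval -0.41 to 1.41, adjusted p = 0.9998). The sign of the value for bleomycin WT against saline WT turned when single libraries were left out, from -0.31 without bleomycin WT 1 to 0.40 without saline WT 3. Il1b shares 25 exonic bases with its antisense gene Il1bos, which was counted at 9.42 CPM or less in every library.

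Il18, on chromosome 9 (chr9:50554827-50581840), was counted at 36.1, 41.7, 55.8 and 42.0 CPM in bleomycin KO, against 57.1, 24.5, 41.1 and 39.6 CPM in bleomycin WT and 37.2, 0, 111 and 100.8 CPM in saline WT. Saline WT 3 and 4 lay above all 8 bleomycin libraries, and saline WT 1 lay among them. The log2 fold change of bleomycin WT against saline WT was -0.71 (SE 0.68, adjusted p = 0.655, edgeR) over 12 libraries and -1.03 (SE 0.43, adjusted p = 0.325) over 10. That of bleomycin KO against saline WT was -0.60 (SE 0.68, adjusted p = 0.844) over 12 and -0.92 (SE 0.40, adjusted p = 0.278) over 10.

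Il1rn, the antagonist of both agonists, was counted at 1420.2, 1244, 1368 and 1117 CPM in bleomycin KO, against 1044, 770.3, 1131 and 1174 CPM in bleomycin WT. It stood at 427, 129.7, 496 and 428 CPM in saline WT, where saline WT 2 rests on 12 counts. The lowest bleomycin library, at 770.3 CPM, lay above the highest saline library, at 496 CPM. The mean CPM of Il1rn was 1288 ± 135 in bleomycin KO, against 1029.9 ± 181 in bleomycin WT and 370.4 ± 164 in saline WT (SD, n = 4 each). Over 12 libraries the log2 fold change was 1.78 (SE 0.41, adjusted p = 0.207, edgeR) for bleomycin KO and 1.46 (SE 0.41, adjusted p = 0.219) for bleomycin WT, each against saline WT. Over 10 libraries Il1rn rose in both, by 1.499 (SE 0.18, adjusted p = 0.0114, edgeR) in bleomycin KO and by 1.10 (SE 0.19, adjusted p = 0.0424) in bleomycin WT on the log2 scale. The 2 comparisons share the saline WT libraries. Il1rn in bleomycin KO against bleomycin WT gave 0.32 (95% interval -0.53 to 1.17, adjusted p = 0.9998) over 12 libraries. Over 10 libraries, the 4 bleomycin KO libraries lay above the 3 bleomycin WT libraries that remained and the value was 0.40 (95% interval 0.01 to 0.79, adjusted p = 0.9999).

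The balance of antagonist to agonist was read within each library as the log2 ratio of Il1rn to Il1b, each per exonic length, with 1 CPM added to both. It was -2.49, -2.57, -2.62 and -2.50 in bleomycin KO, against -2.90, -2.42, -2.51 and -1.32 in bleomycin WT and -3.13, -4.27, -4.28 and -3.99 in saline WT. Every bleomycin library lay above every saline library. Among the saline libraries the ratio was highest in saline WT 1 and lowest in saline WT 3 and 2. Summed neutrophil markers (listed with the receptors) stood at 2691 CPM in saline WT 1, 30121 CPM in saline WT 3, 3708 CPM in saline WT 2 and 18369 CPM in saline WT 4. Saline WT 4 thus had a higher sum and also a higher ratio than saline WT 2, the library with the fewest counts. On the linear scale the ratio was 0.163 to 0.178 in bleomycin KO, 0.134 to 0.400 in bleomycin WT and 0.0514 to 0.114 in saline WT. The difference from saline WT was 1.37 in bleomycin KO and 1.63 in bleomycin WT, each with p = 0.0286 by a two-sided exact permutation test (n = 4 each) and adjusted p = 0.129 over 9 ratio comparisons. This p is the smallest that 4 against 4 libraries can give, and the adjusted value does not pass. Bleomycin KO and bleomycin WT differed by -0.26 (exact permutation p = 0.657), and by 0.066 without bleomycin WT 4.

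**Figure D3:**
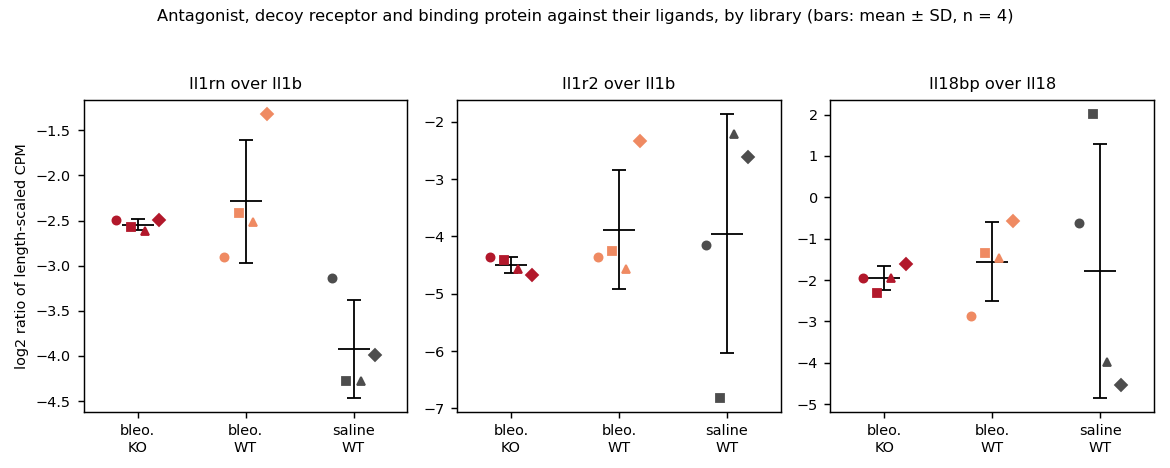
Log2 ratio per exonic length (y axis) of Il1rn to Il1b, Il1r2 to Il1b and Il18bp to Il18 in every library, for bleomycin KO, bleomycin WT and saline WT from left to right, with bars for the mean ± SD (n = 4). For Il1rn to Il1b the 8 bleomycin libraries (-2.90 to -1.32) lie above the 4 saline libraries (-4.28 to -3.13); the other ratios overlap.

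Il1r2, the decoy receptor on chromosome 1 (chr1:40074079-40125231), was counted at 203, 182, 185 and 129 CPM in bleomycin KO, against 197, 112, 142 and 304 CPM in bleomycin WT and 109, 10.8, 1089 and 582 CPM in saline WT. Saline WT 3 and 4 lay above every bleomycin library, and saline WT 1 and 2 below every one of them. The log2 fold change of bleomycin WT against saline WT was -1.27 (SE 0.78, adjusted p = 0.459, edgeR) over 12 libraries and -1.98 (SE 0.60, adjusted p = 0.190) over 10. That of bleomycin KO against saline WT was -1.38 (SE 0.78, adjusted p = 0.650) over 12 and -1.76 (SE 0.54, adjusted p = 0.159) over 10. Bleomycin KO against bleomycin WT gave -0.11 (95% interval -1.74 to 1.52, adjusted p = 0.9998). The log2 ratio of Il1r2 to Il1b per length was -4.50 ± 0.14 in bleomycin KO, -3.88 ± 1.04 in bleomycin WT and -3.95 ± 2.08 in saline WT (SD, n = 4 each). The 3 comparisons of that ratio had adjusted p from 0.686 to 1 by the exact permutation test.

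Il1rap, the accessory chain on chromosome 16 (chr16:26581704-26730117), had the same order of libraries at the top. It was counted at 74.7, 33.2, 35.3 and 39.5 CPM in bleomycin KO, against 46.6, 45.5, 48.4 and 12.4 CPM in bleomycin WT and 44.0, 0, 274 and 205 CPM in saline WT. Only saline WT 3 and 4 lay outside the range of the bleomycin libraries on the high side, and saline WT 2, with 0 counts, on the low side. The log2 fold change was -1.57 (SE 0.81, adjusted p = 0.603, edgeR) for bleomycin KO and -1.83 (SE 0.82, adjusted p = 0.324) for bleomycin WT, each against saline WT over 12 libraries. Over 10 libraries the value was -1.94 (SE 0.50, adjusted p = 0.106) for bleomycin KO and -1.90 (SE 0.55, adjusted p = 0.171) for bleomycin WT. Il1rap shares 552 of 11360 annotated exonic bases with the antisense gene Gm20319, counted at 21.0 CPM or less in every library. The deposited size used for the Il1rap level per kb was 8602 bases.

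Markers of neutrophils, which express Il1r2 strongly, were high in the same saline WT libraries as these 2 genes. The 12 neutrophil markers (S100a8, S100a9, Ly6g, Retnlg, Cxcr2, Csf3r, Mmp8, Mmp9, Ltf, Camp, Ngp and Stfa2l1) summed to 1232 to 2007 CPM in bleomycin KO, 569 to 1675 CPM in bleomycin WT and 2691 to 30121 CPM in saline WT. The sums in saline WT 1 to 4 were 2691, 3708, 30121 and 18369 CPM, so saline WT 3 and 4 were highest, as for Il1r2, Il1rap and Il18. All 12 markers had negative log2 fold changes in both bleomycin groups against saline WT, with a median of -3.26 in bleomycin KO and -3.22 in bleomycin WT, and 0 of 12 passed an adjusted p of 0.05 over 12 libraries (edgeR). That compares with 0.018% of all genes in bleomycin KO and 0.024% in bleomycin WT. An unadjusted p under 0.05 was found for 11 of 12 in each comparison, against 9.03% of all genes in bleomycin KO and 14.7% in bleomycin WT. Over 10 libraries 3 of 12 (S100a8, S100a9 and Retnlg) fell in bleomycin KO, against 0.643% of all genes called, and 1 of 12 (S100a9) fell in bleomycin WT, against 0.431%. Ly6g, a defining marker, was at 0 in at least 1 library of each group, Cxcr2 was at 0 in a bleomycin WT and a saline WT library, and Camp was at 0 in a saline WT library. Il1b was also highest among the saline WT libraries in saline WT 3 and 4, at 4853 and 3412 CPM. Il1rn stood at 427, 496 and 428 CPM in saline WT 1, 3 and 4. Saline WT 3 and 4 were also the highest libraries for summed classical monocyte markers (8548 and 4907 CPM) and alveolar macrophage markers (4521 and 2734 CPM). The same held for markers of eosinophils, basophils and mast cells (1872 and 1250 CPM). Summed dendritic cell and lung epithelium markers were highest in saline WT 1, and those of macrophages, T and NK cells and fibroblasts in bleomycin libraries. The part of the neutrophil markers or of these other lists in the values of Il1r2, Il1rap, Il18, Il1b, Il1rn and the ratio of Il1rn to Il1b was not tested.

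**Figure D4:**
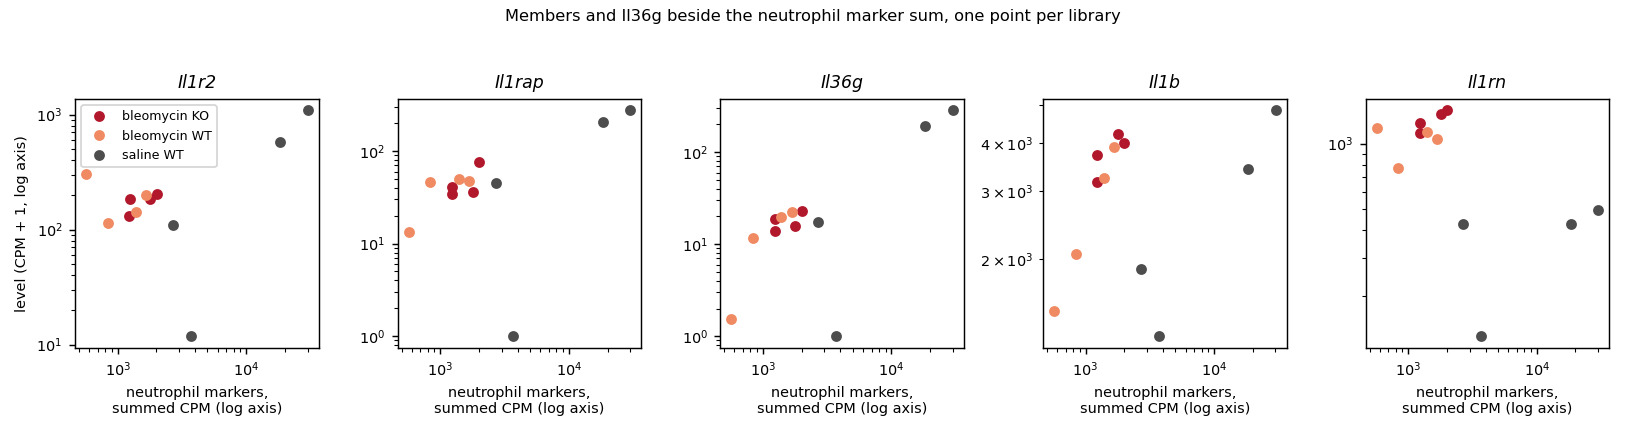
Level of Il1r2, Il1rap, Il36g, Il1b and Il1rn (y axis, CPM with 1 added, log axis) against the summed CPM of 12 neutrophil markers (x axis, log axis), with 1 point per library coloured for bleomycin KO, bleomycin WT or saline WT. Saline WT 3 and 4 lie farthest right, at 30121 and 18369 CPM, and highest for Il1r2, Il1rap and Il36g, while Il1rn is lower in every saline WT library than in every bleomycin library.

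Il18bp, the secreted inhibitor of IL-18 on chromosome 7 (chr7:102014885-102018690), was counted at 27.3, 24.2, 42.4 and 40.2 CPM in bleomycin KO, against 22.5, 28.4, 44.0 and 79.3 CPM in bleomycin WT and 72.5, 10.8, 20.0 and 11.9 CPM in saline WT. The groups overlapped. The log2 fold change of bleomycin WT against saline WT was 0.50 (95% interval -0.93 to 1.94, adjusted p = 0.775, edgeR) over 12 libraries and -0.18 (adjusted p = 0.914) over 10, so its sign rests on the 2 libraries left out. The log2 ratio of Il18bp to Il18 per length was -1.95 ± 0.29 in bleomycin KO, -1.56 ± 0.95 in bleomycin WT and -1.78 ± 3.06 in saline WT (SD, n = 4 each), and its 3 comparisons had adjusted p from 0.986 to 1 by the exact permutation test. The wide spread in saline WT includes saline WT 2, in which Il18 had 0 counts and Il18bp 1 count. Il18bp shares 80 of 3026 exonic bases with Numa1 on the other strand. Numa1 averaged 71.5 CPM in bleomycin KO, 72.0 in bleomycin WT and 107 in saline WT.

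Of the inflammasome genes, Pycard stood apart from saline WT and Nlrp3 and Casp1 did not. Pycard, the adaptor on chromosome 7 (chr7:127989708-127993867), was counted at 152, 202, 197 and 195 CPM in bleomycin KO, against 196, 147, 254 and 326 CPM in bleomycin WT and 86.6, 10.8, 84.3 and 93.6 CPM in saline WT. Every bleomycin library lay above every saline library, and saline WT 2 rests on 1 count. For Pycard the log2 fold change was 1.35 (SE 0.51, adjusted p = 0.436, edgeR) for bleomycin KO and 1.66 (SE 0.51, adjusted p = 0.222) for bleomycin WT, each against saline WT over 12 libraries. Over 10 libraries it was 1.07 (SE 0.23, adjusted p = 0.0624) in bleomycin KO and 1.15 (SE 0.24, adjusted p = 0.0669) in bleomycin WT, neither of which passed. Bleomycin KO against bleomycin WT gave -0.31 (95% interval -1.36 to 0.74, adjusted p = 0.9998). Pycard shares 485 of 3800 exonic bases with Gm45205 on the other strand, which was counted at 77.7 to 112 CPM in bleomycin KO, 80.3 to 478 CPM in bleomycin WT and 37.5 to 75.7 CPM in saline WT, and the reads of the 2 genes cannot be told apart there.

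Nlrp3, the sensor on chromosome 11 (chr11:59541568-59566956), was counted at 346, 179.7, 137 and 141 CPM in bleomycin KO, against 173, 265, 158 and 177 CPM in bleomycin WT and 99.5, 0, 293 and 242 CPM in saline WT. The groups overlapped, and bleomycin KO 1 was the highest of all libraries. For Nlrp3 the log2 fold change was 0.29 (95% interval -1.19 to 1.77, adjusted p = 0.941, edgeR) for bleomycin KO and 0.23 (95% interval -1.25 to 1.72, adjusted p = 0.913) for bleomycin WT, each against saline WT.

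Casp1, the protease on chromosome 9 (chr9:5298517-5307265), was counted at 72.1, 84.0, 86.9 and 83.0 CPM in bleomycin KO, against 82.0, 57.0, 78.3 and 159 CPM in bleomycin WT and 55.7, 10.8, 107 and 102 CPM in saline WT. The groups overlapped, and bleomycin WT 4, at 159 CPM, lay above every saline WT library. For Casp1 the log2 fold change was 0.16 (95% interval -1.02 to 1.35, adjusted p = 0.959, edgeR) for bleomycin KO and 0.37 (95% interval -0.82 to 1.55, adjusted p = 0.806) for bleomycin WT, each against saline WT. Over 10 libraries the values for Nlrp3 and Casp1 in these comparisons were between -0.30 and -0.09, with the other sign.

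Counted over the 10 genes, bleomycin WT against saline WT gave 6 positive and 4 negative log2 fold changes, with a median of 0.30 against 0.08 over all genes tested. In that comparison 0 of 10 passed the adjusted threshold in edgeR, against 0.024% of all genes, and 4 had an unadjusted p under 0.05 (Il1a, Il1rn and Pycard higher, Il1rap lower), against 14.7%. The bleomycin WT libraries all lay above saline WT for 3 of 10 genes, against 4.93% of all genes, and all below for 0 of 10, against 0.929%. DESeq2 and limma-voom also called 0 of 10, against 616 of 16697 genes and 1 of 16679 genes. limma-voom with quality weights, which gives deviating libraries less weight, called Il1rn, against 295 of 16679 genes. Over 10 libraries 1 of 10 passed, against 0.431% of all genes, and the same 3 genes lay all above, against 10.9%, and 0 all below, against 9.72%. With those libraries 6 had an unadjusted p under 0.05 (Il1a, Il1rn and Pycard higher, Il1r2, Il1rap and Il18 lower), against 14% of all genes, and the median of the 10 genes was -0.16 against -0.14 over all genes, so the positive median over 12 libraries rests on the 2 left out.

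For bleomycin KO against saline WT, which shares the saline libraries with the comparison above, the median was 0.23 against 0.04 over all genes. Here 0 of 10 passed in edgeR over 12 libraries, against 0.018% of all genes, 3 had an unadjusted p under 0.05 (Il1a, Il1rn and Pycard), against 9.03%, and the same 3 lay above saline WT in all libraries, against 8.17%, and 0 below, against 1.04%. DESeq2 called Il1a and Il1rn, against 685 of 18227 genes in all. edgeR without the filter on low counts called the same 2, against 694 of 40764 genes. limma-voom called 0 of 10, against 12 of 16679 genes, and with quality weights it called Il1rn, against 226 of 16679. Over 10 libraries 2 of 10 passed, against 0.643% of all genes, 3 of 10 lay all above, against 8.14%, and 0 all below, against 7.89%. An unadjusted p under 0.05 was found for 6 (the same 3 higher, Il1r2, Il1rap and Il18 lower), against 16.8% of all genes, and the median turned to -0.08, against -0.15 over all genes.

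For bleomycin KO against bleomycin WT the median was 0.08 against -0.01 over all genes, and the 10 values lay between -0.38 and 0.61. In edgeR 0 of 10 genes passed, against 0% of all genes, and 0 of 10 had an unadjusted p under 0.05, against 3.88%. DESeq2, limma-voom and limma-voom with quality weights each called 0 of 10, where DESeq2 called 1 of 39474 genes. Il1a alone lay above bleomycin WT in every library, against 0.905% of all genes, and 0 lay below, against 0.594%. Over 10 libraries 0 of 10 passed, against 0% of all genes, 1 (Il1rn) had an unadjusted p under 0.05, against 0.92%, and 2 (Il1a and Il1rn) lay all above, against 1.36%, and 0 all below, against 1.82%. For each of the 10 genes the 95% interval over 12 libraries held a change of 1 log2 unit in at least 1 direction. A difference of that size between the genotypes was therefore not excluded for any of them over 12 libraries. Over 10 libraries, intervals for this comparison are given only for Il1a and Il1rn, with those genes. That of Il1rn held no such change, and that of Il1a did.

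**Figure D5:**
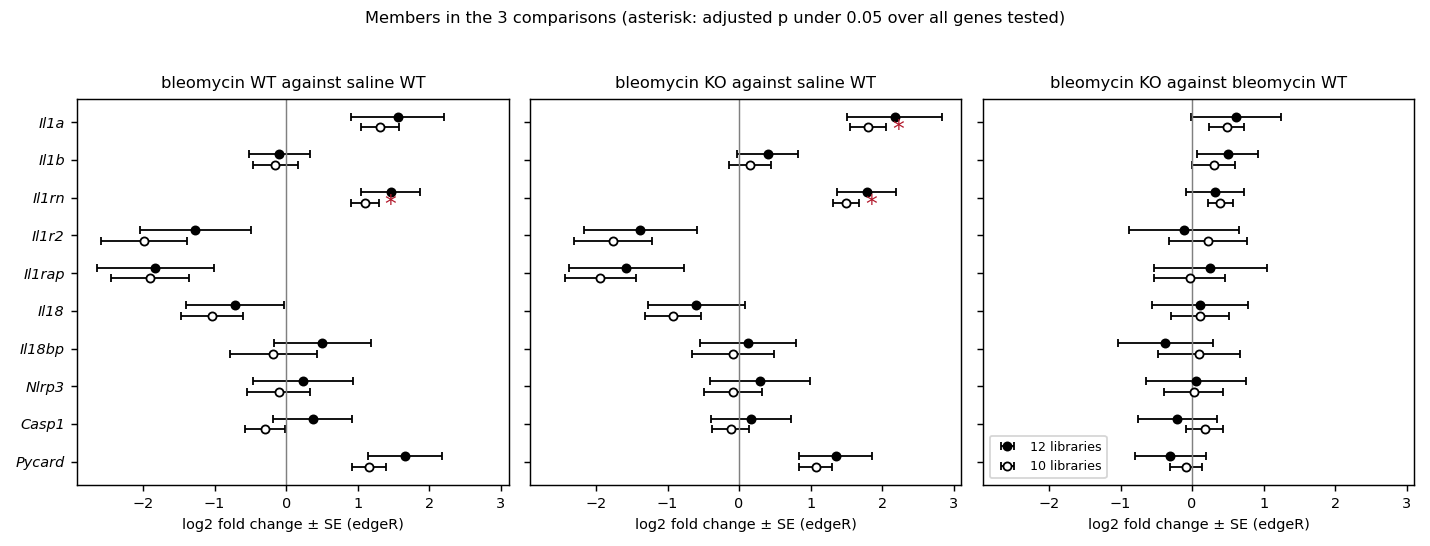
Log2 fold change (x axis) of each of the 10 genes in bleomycin WT against saline WT, bleomycin KO against saline WT and bleomycin KO against bleomycin WT, from left to right, over 12 libraries (filled) and 10 libraries (open), with bars for the standard error and asterisks at adjusted p under 0.05. Il1a, Il1rn and Pycard are positive against saline WT, and the only asterisks are for Il1rn and Il1a over 10 libraries.

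Wider lists of the pathway gave few calls. Of the 6 other IL-1 family ligands, 2 were tested, Il36g and Il33, and 0 passed in edgeR over 12 libraries in any comparison, with 1 of 2 (Il36g) at an unadjusted p under 0.05 in each comparison with saline WT, against 9.03% of all genes in bleomycin KO and 14.7% in bleomycin WT, and 0 between the genotypes, against 3.88%. Il36g, which encodes IL-36 gamma, an agonist of the related IL-36 receptor, was counted at 21.9, 12.9, 14.9 and 17.5 CPM in bleomycin KO, against 21.2, 10.7, 18.5 and 0.533 CPM in bleomycin WT and 16.5, 0, 284 and 193 CPM in saline WT. As for Il1r2, saline WT 3 and 4 were highest. Its log2 fold change in bleomycin WT against saline WT was -3.33 (SE 1.07, adjusted p = 0.228, edgeR). Il36g passed in that comparison with DESeq2 (adjusted p = 0.0222), without the filter on low counts (edgeR, 0.0033) and with limma-voom and quality weights (0.0270). Il33, an alarmin of epithelium, was at 7.89 CPM or less in every library.

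Of 17 receptor and signalling genes, all were tested and 0 passed over 12 libraries in any comparison. Bleomycin WT against saline WT gave 2 of 17 at an unadjusted p under 0.05, both higher, against 14.7% of all genes. Bleomycin KO against saline WT gave 2, against 9.03%, and bleomycin KO against bleomycin WT gave 1, against 3.88%. Over 10 libraries 1 of 17 passed in bleomycin KO against saline WT, against 0.643% of all genes, and 0 passed in the other comparisons. Il1rl2, the IL-36 receptor, was counted at 103, 104, 94.2 and 57.7 CPM in bleomycin KO, against 71.6, 112, 69.5 and 3.91 CPM in bleomycin WT and 30.2, 0, 12.2 and 16.2 CPM in saline WT. Every bleomycin library other than bleomycin WT 4 lay above every saline library. Il1rl2 rose in bleomycin KO against saline WT over 10 libraries (log2 fold change 2.18, SE 0.39, adjusted p = 0.0437, edgeR) and gave 2.39 (SE 0.81, adjusted p = 0.375) over 12. In bleomycin WT against saline WT it gave 1.91 (SE 0.80, adjusted p = 0.298) over 12 libraries and 2.08 (SE 0.40, adjusted p = 0.0564) over 10, and it passed with limma-voom and quality weights (adjusted p = 0.0395).

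Il1r1, the signalling receptor of Il1a and Il1b, rested on 1 library. It stood at 283 CPM in bleomycin WT 4 and at 17.8 CPM or less in the other 11. Its log2 fold change in bleomycin WT against saline WT was 3.53 (SE 1.25, adjusted p = 0.25, edgeR) over 12 libraries and 0.76 (SE 0.95, adjusted p = 0.742) over 10, and it passed over 12 without the filter on low counts (edgeR, adjusted p = 0.0098). Il18rap, the accessory chain of the IL-18 receptor, also peaked in bleomycin WT 4, at 183 CPM, and its log2 fold change of bleomycin KO against bleomycin WT was -0.69 (SE 0.78, adjusted p = 0.9998) over 12 libraries and 0.51 (SE 0.62, adjusted p = 0.9999) over 10.

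Of 18 other inflammasome sensors, effectors and regulators, all were tested and 0 passed over 12 or over 10 libraries in any comparison in edgeR. Over 12 libraries 1 of 18 had an unadjusted p under 0.05 in each comparison, against 14.7% of all genes in bleomycin WT against saline WT, 9.03% in bleomycin KO against saline WT and 3.88% in bleomycin KO against bleomycin WT. Over 10 libraries these counts were 4, 6 and 0 of 18, against 14%, 16.8% and 0.92% of all genes. Mefv, which encodes the sensor pyrin, was counted at 26.4, 13.1, 9.59 and 1.48 CPM in bleomycin KO, against 15.2, 15.1, 29.0 and 3.91 CPM in bleomycin WT and 79.0, 205, 65.8 and 25.9 CPM in saline WT. Its log2 fold change was -2.48 (SE 0.88, adjusted p = 0.248, edgeR) in bleomycin WT against saline WT, where it passed with DESeq2 (adjusted p = 0.0303). Gsdme, a pore-forming gasdermin, stood at 603 CPM in bleomycin WT 4 and at 73.3 CPM or less in the other 11 libraries, and its log2 fold change of bleomycin KO against bleomycin WT was -3.50 (SE 1.34, adjusted p = 0.9998) over 12 libraries and 0.036 (SE 0.87, adjusted p = 0.9999) over 10. Without the filter on low counts Gsdme passed in that comparison over 12 libraries (edgeR, adjusted p = 0.0029). Nlrc4, a sensor of bacterial proteins, was likewise highest in bleomycin WT 4, at 109 CPM.

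The genes most like 3 of the members over the 12 libraries were found by Spearman correlation of CPM among 9289 genes with a mean of at least 10 CPM. The libraries share depth and cell makeup, so these are descriptions. Il1b was most like Sirpb1c (rho 0.951), Mir22hg (0.930) and Sgms1 (0.923). Il1rn was most like Spcs3 (0.923), Nampt (0.909) and Cul2 (0.909), and Il18 was most like Mrpl33 (0.923), Mrps6 (0.916) and C920021L13Rik (0.909). Nampt averaged 223 CPM in bleomycin KO, against 704 in bleomycin WT and 89.1 in saline WT. Spcs3 averaged 251, 589 and 125 CPM in the same order. Both means were higher in bleomycin WT than in bleomycin KO, unlike those of Il1rn (1029.9 and 1288 CPM). Only group means are given here, and whether a single library raised them was not tested.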

How the data were processed

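Bulk RNA of Cx3cr1+ lung macrophages was measured in 12 libraries. SMART-Seq v4 cDNA, which does not mark strand, and Nextera XT libraries were sequenced from a single end, per the labels' protocols. Per the submitters' processing notes, GSNAP, Partek and limma were used with GRCm38 and mm10; versions, counting settings and the handling of multiply matching reads were not given in the sources used here. Values in the main table the authors deposited are raw counts of reads per Ensembl gene, in whole numbers. A second deposited table gives symbols and the exonic size of each gene in bases, another value made by the authors, by which levels per kb were divided. For some genes this size differs from the exonic bases of GENCODE vM21, from which shared bases were taken. Il1rap has 8602 against 11360 bases, and Il1b has 1356 against 1907. Levels per kb and ratios were not computed with the GENCODE lengths. The design text of the series describes another experiment and was not used.

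Libraries were grouped by the treatment and genotype labels. edgeR 4.0.16 in R 4.3.3 was run with filterByExpr by group, TMM scaling and robust quasi-likelihood fits with group as the only term, over all 12 libraries in 1 fit; p-values were adjusted by Benjamini-Hochberg over all 16679 genes tested, with a threshold of 0.05. A standard error is the log2 fold change over the square root of its F statistic, and 95% intervals use each gene's total (residual and prior) degrees of freedom. Total counts were 60598 to 18051113, and a floor of 3 counts covers counting error alone, as PCR duplicates are no independent molecules. Ratios were tested by two-sided exact permutation tests with a pseudocount of 1 CPM. Alternatives were DESeq2 1.42.0, its size factors in edgeR, no filter, limma-voom (limma 3.58.1) with and without quality weights, 2-group fits, a replicate block, other pseudocounts, leaving out each library in turn and, added after seeing the data, leaving out saline WT 2 and bleomycin WT 4. The fit was tested on simulated data. Every pair of libraries within a group differed by more than sampling noise (lowest chi-square per degree of freedom 23.9).

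The 10 genes and all lists were chosen with earlier results of these data known. Wider lists hold 41 genes, of which 37 were tested. From each, the genes named are those past the threshold and the 2 with the smallest p in bleomycin WT against saline WT and in bleomycin KO against bleomycin WT; 5 symbols were matched through a synonym. Il1rl2 in bleomycin KO against saline WT and the genes on the strand opposite to members were named after their values were seen. Marker lists of other cell types, each summed per library, were used beside the results. Positions and shared exonic bases are from GENCODE vM21 (GRCm38), and promoter windows from RefSeq (GRCm38.p6).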

Additional observations from a re-analysis of the deposited data

Results flagged for a closer look

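Of 39 groups of 4 examined (10 genes and 3 ratios in each condition), 7 held 1 library far from its others. The rule used gives about 1 in 20 by chance only for independent groups of normally distributed values. The groups here share libraries, and the ratios share genes with them, so 7 of 39 cannot be set against that rate. Bleomycin KO 3 was high for Il1a at 811 CPM, against 676 to 688 CPM in the other bleomycin KO libraries. Bleomycin KO 1 was high for Il1rap at 74.7 CPM, against 33.2 to 39.5 CPM, and low for Pycard at 152 CPM, against 195 to 202 CPM. Bleomycin WT 4 was low for Il1rap at 12.4 CPM, against 45.5 to 48.4 CPM, and high for the log2 ratio of Il1r2 to Il1b at -2.34, against -4.57 to -4.25. Saline WT 1 was high for Il18bp at 72.5 CPM, against 10.8 to 20.0 CPM, and saline WT 2 was low for Pycard at 10.8 CPM (1 count), against 84.3 to 93.6 CPM.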

How the results depend on the processing

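Il1a, Il1rn and Pycard had positive log2 fold changes in both comparisons with saline WT under all 20 settings, from 1.29 to 1.88, 1.10 to 1.73 and 1.15 to 1.85 in bleomycin WT. Il1rn passed in bleomycin WT against saline WT under 2 of 20 settings and in bleomycin KO against saline WT under 5. Il1a passed in bleomycin KO against saline WT under 3. Across the named genes, 68 of 860 values changed sign, none of which passed the threshold. Scaling moved the median log2 fold change of all genes by -0.21 (DESeq2) and -0.18 (its size factors in edgeR) in bleomycin WT against saline WT, and by -0.19 and -0.16 in bleomycin KO against saline WT. Causes of the changes below were not tested, except that the fits of 2 groups and of 10 libraries hold fewer samples.

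Counts of genes called in bleomycin WT against saline WT, bleomycin KO against bleomycin WT and bleomycin KO against saline WT were 4, 0 and 3. They were 616, 1 and 685 with DESeq2 (of 16697, 39474 and 18227 tested) and 780, 243 and 694 without a filter (of 40764). They were 295, 0 and 226 with voom quality weights (of 16679) and 81, 0 and 121 without saline WT 2 and bleomycin WT 4 (of 18812). In the comparisons with saline WT (bleomycin WT first here) they were 1 and 1 with DESeq2 size factors, 1 and 12 with limma-voom, 0 and 1 in fits of 2 groups, and 2 and 1 with the replicate block. Members called in bleomycin KO against saline WT were 2 with DESeq2, 2 without a filter, 1 with voom quality weights and 2 over 10 libraries; in bleomycin WT against saline WT they were 1 with voom quality weights and 1 over 10 libraries. Leaving out 1 library at a time gave 1 (without saline WT 3) to 11 (without bleomycin WT 4) genes, 0 to 0 and 0 (without saline WT 3) to 18 (without bleomycin WT 4) genes, and 0 to 0, 0 to 0 and 0 to 1 members.

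The replicate numbers did not pair the libraries: libraries with the same number correlated at -0.20 to 0.07 in their deviations from the group means, and 1 of 12 correlated best with its own number. With the replicate block, bleomycin KO against bleomycin WT gave 0.064 for Il1r2 and -0.0027 for Nlrp3, both with the other sign than without it.

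Other values that changed sign follow. In bleomycin WT against saline WT these were Il33 (-0.046 with DESeq2, -0.19 with limma-voom, -0.23 with voom quality weights), and with voom quality weights Il1b (0.0046), Nlrp3 (-0.14), Casp1 (-0.24) and Gsdme (-1.09). Over 10 libraries they were Il18bp (-0.18), Nlrp3 (-0.11), Casp1 (-0.30) and Gsdme (-1.35). In bleomycin KO against bleomycin WT, limma-voom gave 0.057 for Il1r2, -0.017 for Nlrp3 and 0.013 for Il18rap. In the same comparison, voom quality weights gave 0.073 for Il1r2, -0.079 for Il1rap, -0.030 for Il18, 0.15 for Il18bp, 0.067 for Casp1, -0.071 for Il36g, 0.21 for Il18rap and 0.015 for Gsdme. Over 10 libraries it gave 0.22 for Il1r2, -0.035 for Il1rap, 0.096 for Il18bp, 0.18 for Casp1, -0.14 for Il33, 0.51 for Il18rap and 0.036 for Gsdme. In bleomycin KO against saline WT, Il18bp was -0.12 with DESeq2, -0.11 with its size factors and -0.082 over 10 libraries. Nlrp3 was -0.077 with voom quality weights and -0.085 over 10 libraries, and Casp1 was -0.0070 with DESeq2, -0.17 with voom quality weights and -0.12 over 10 libraries.

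Of the ratios, Il18bp to Il18 in bleomycin WT against saline WT was -0.23 with a pseudocount of 0.25 CPM. In bleomycin KO against saline WT it was 0.22 with 5 CPM and 1.09 over 10 libraries. Il1r2 to Il1b in bleomycin WT against saline WT was -0.020 with 5 CPM and -1.40 over 10 libraries. Il1rn to Il1b in bleomycin KO against bleomycin WT was 0.066 over 10 libraries.

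Leaving out 1 library at a time, values in bleomycin WT against saline WT ran from -0.31 to 0.40 for Il1b, -0.054 to 0.79 for Nlrp3, -0.52 to 0.60 for Il33 and -1.06 to 3.63 for Gsdme. In bleomycin KO against bleomycin WT they ran from -0.28 to 0.21 for Il1r2, -0.10 to 0.38 for Il1rap, -0.060 to 0.33 for Il18, -0.58 to 0.074 for Il18bp, -0.35 to 0.26 for Nlrp3 and -0.37 to 0.16 for Casp1. They ran from -0.38 to 0.34 for Il4ra, -0.17 to 0.73 for Il33, -0.99 to 0.50 for Il18rap and -3.86 (without bleomycin WT 3) to 0.020 (without bleomycin WT 4) for Gsdme. In bleomycin KO against saline WT they ran from -0.14 to 1.16 for Il18bp, -0.079 to 0.84 for Nlrp3 and -0.035 to 0.53 for Casp1. The ratio of Il1rn to Il1b ran from 1.31 to 1.89, 1.25 to 1.64 and -0.46 to 0.066 for bleomycin WT against saline WT, bleomycin KO against saline WT and bleomycin KO against bleomycin WT. In the same order, Il1r2 to Il1b ran from -0.89 to 0.64, -1.51 to 0.025 and -0.85 to -0.10, and Il18bp to Il18 from -0.70 to 1.48, -1.10 to 1.09 and -0.83 to -0.066.

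Depth limits saline WT 2, where 1 count is worth 10.8 CPM and Il1a, Il1rap, Il18 and Nlrp3 had 0 counts.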

Other observations

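Marker genes of lung epithelium (10 genes, led by Sftpc and Scgb1a1) summed to 129.8 to 569 CPM in bleomycin KO, 133 to 843 CPM in bleomycin WT and 1444 to 2342 CPM in saline WT. In this sum every bleomycin library lay below every saline library. Singly, 2 of the 9 markers tested did so in each bleomycin group, against 1.04% of all genes in bleomycin KO and 0.929% in bleomycin WT. In saline WT 1 and 2, 4 and 6 of the 10 markers were at 0. Classical monocyte markers summed to 2345 to 2722 CPM in bleomycin KO, 1496 to 3810.3 CPM in bleomycin WT and 2054 to 8548 CPM in saline WT. Alveolar macrophage markers summed to 1311 to 1855 CPM in bleomycin KO, 738 to 2540.4 CPM in bleomycin WT and 1470.1 to 4521 CPM in saline WT. Dendritic cell markers summed to 468 to 603 CPM in bleomycin KO, 317 to 569 CPM in bleomycin WT and 10.8 to 1343 CPM in saline WT. Markers of eosinophils, basophils and mast cells summed to 145 to 241 CPM in bleomycin KO, 105 to 720.1 CPM in bleomycin WT and 21.6 to 1872 CPM in saline WT. T and NK cell markers summed to 165 to 334 CPM in bleomycin KO, 170.3 to 317 CPM in bleomycin WT and 10.8 to 221 CPM in saline WT, and fibroblast markers to 95.7 to 479 CPM in bleomycin KO, 197 to 313 CPM in bleomycin WT and 43.3 to 143 CPM in saline WT. Their part in the levels of the 10 genes was not tested.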
